A study of Mus musculus with 17 samples.

Results

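The genes described here are 10 chromatin regulators that write, erase or accompany DNA methylation and polycomb or trithorax histone marks: Dnmt1, Dnmt3a, Dnmt3b, Tet1, Tet2, Tet3, Asxl1, Ezh1, Ezh2 and Kmt2a. They were taken by gene symbol as a list built around regulators whose loss is linked to clonal advantage of stem cells under inflammation. The list also holds their paralogs and Kmt2a, and a place in it does not mean that loss of the gene gives an advantage. The members are 10 of the 35321 genes in the count table, and all 10 were among the 14920 genes abundant enough to test. Polyadenylated RNA was sequenced in 17 libraries of HSPC (hematopoietic stem and progenitor cells, the immature blood-forming cells), sorted from the bone marrow of wild-type C57BL/6J mice, an inbred strain. There were 5 groups. Control mice received phosphate buffered saline (PBS, 5 libraries, labelled day 0). The other mice received LPS (lipopolysaccharide from the bacterial outer membrane, which provokes inflammation), alone or with a blocking antibody against IL-10R, the receptor of the anti-inflammatory cytokine interleukin-10, and marrow was taken at 24 h or 72 h, with 3 libraries in each of the 4 groups. All injections were intraperitoneal and no group carried an engineered allele. No group received the antibody without LPS. No PBS library is labelled 24 h or 72 h, so treatment and time since injection cannot be told apart in the comparisons with PBS. The age of the mice was not given in the sources used here. The amounts of LPS (5) and antibody (100) are in micrograms in the series' design text and in milligrams in the sample labels. The labels do not say that the libraries of a group came from separate mice, so the p-values below measure the spread between libraries, which may be technical in part.

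DNA methylation is copied at replication by Dnmt1, which Uhrf1 brings to newly made DNA, and is laid down on new sites by Dnmt3a and Dnmt3b. The Tet enzymes oxidize methylcytosine, and the glycosylase Tdg removes the oxidized bases. Ezh1 and Ezh2 are the alternative catalytic subunits of polycomb repressive complex 2 (PRC2), which also contains Eed and Suz12 and places a silencing methyl mark on histone H3. Asxl1 is a partner of the deubiquitinase Bap1 (the PR-DUB complex), and Kmt2a, also called MLL, is the histone methyltransferase that keeps HoxA genes and Meis1 active together with Menin, the product of Men1. In human blood, mutations of DNMT3A, TET2 and ASXL1 are among the most frequent lesions of clonal hematopoiesis, and Ezh1 is known to be needed for the maintenance of adult mouse stem cells.

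Tet1, Ezh1 and Kmt2a were the 3 genes that fell after LPS at 24 h, and the DNA before a RefSeq start site of each is therefore shown. Ezh2 is added as the paralog of Ezh1 that did not pass the test in any comparison. The sequences come from RefSeq promoter windows on build GRCm38.p6, of which the 250 bases before the annotated start were searched and the stretches free of annotated exons were printed. The Ezh1 stretch is chr11:101226464-101226713, that of Kmt2a is chr9:44881297-44881539, that of Tet1 is chr10:62887325-62887412 and that of Ezh2 is chr6:47595059-47595183. All 4 genes lie on the minus strand and are written 5′ to 3′ along the gene. The windows of Tet1 and Ezh2 lie inside the gene as annotated by GENCODE M21 (chr10:62804570-62908996 and chr6:47530139-47595341). GENCODE thus places a start of these genes farther upstream, and the DNA before that start was not searched in full. Capitals mark the CCAAT box (CCAAT on either strand, so ATTGG on the other).
Ezh1: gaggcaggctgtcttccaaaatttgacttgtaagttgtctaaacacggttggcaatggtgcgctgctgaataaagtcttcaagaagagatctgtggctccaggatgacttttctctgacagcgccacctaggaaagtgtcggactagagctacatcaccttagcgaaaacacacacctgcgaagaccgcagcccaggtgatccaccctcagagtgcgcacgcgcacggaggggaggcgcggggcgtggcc
Kmt2a: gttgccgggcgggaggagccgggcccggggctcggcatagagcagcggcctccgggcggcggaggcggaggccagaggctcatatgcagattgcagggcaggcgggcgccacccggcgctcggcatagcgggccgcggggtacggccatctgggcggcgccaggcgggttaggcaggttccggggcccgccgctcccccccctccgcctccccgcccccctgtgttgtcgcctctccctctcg
Tet1: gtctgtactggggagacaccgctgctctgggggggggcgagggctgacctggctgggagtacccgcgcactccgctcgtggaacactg
Ezh2: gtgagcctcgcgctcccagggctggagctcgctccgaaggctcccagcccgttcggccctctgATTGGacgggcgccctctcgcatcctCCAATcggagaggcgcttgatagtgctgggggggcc
The full 250-base window of Ezh2 held 3 CCAAT boxes, of which 2 lie in the printed stretch, and the windows of Ezh1, Kmt2a and Tet1 held none. A CCAAT box was present in 33.8% of the 32851 promoter windows of this length. The GC box (GGGCGG, both strands), present in 32.7% of windows, was found 4 times for Kmt2a, once for Tet1 and in neither Ezh gene. CpG dinucleotides numbered 14 for Ezh1, 23 for Ezh2, 29 for Kmt2a and 15 for Tet1, against a median of 6 over all windows. The E2F motif (TTTCCCGC, TTTCGCGC, TTTGCCGC or TTTGGCGC, both strands) was in 1.86% of windows and, among the 10 genes, in a window of Dnmt1. The cyclic AMP response element (TGACGTCA) was in 1.55% of windows and in no window of the 10 genes. These matches describe letters in the windows, and binding of a factor was not measured.

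Per kilobase of exon, Dnmt1 was the most abundant of the 10 genes in PBS, at 75.2 ± 6.78 CPM per kb (mean ± SD, n = 5, where CPM is the count of a gene per 1000000 counts of the scaled library). Ezh2 (22.3 ± 1.92) and Asxl1 (21.9 ± 1.97) followed, and their libraries overlapped. Dnmt3b (13.9 ± 1.43) and Kmt2a (13.7 ± 2.203) also overlapped each other. Dnmt3a stood at 8.01 ± 1.14, Tet3 at 6.98 ± 0.571 and Ezh1 at 6.39 ± 0.219 CPM per kb, with overlap between neighbours in this order. Tet1 (3.21 ± 0.887) and Tet2 (3.07 ± 0.357) were lowest and were not separated. Lengths are unions of all annotated exons, so a gene with unused long isoforms reads low on this scale.

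**Figure D1:**
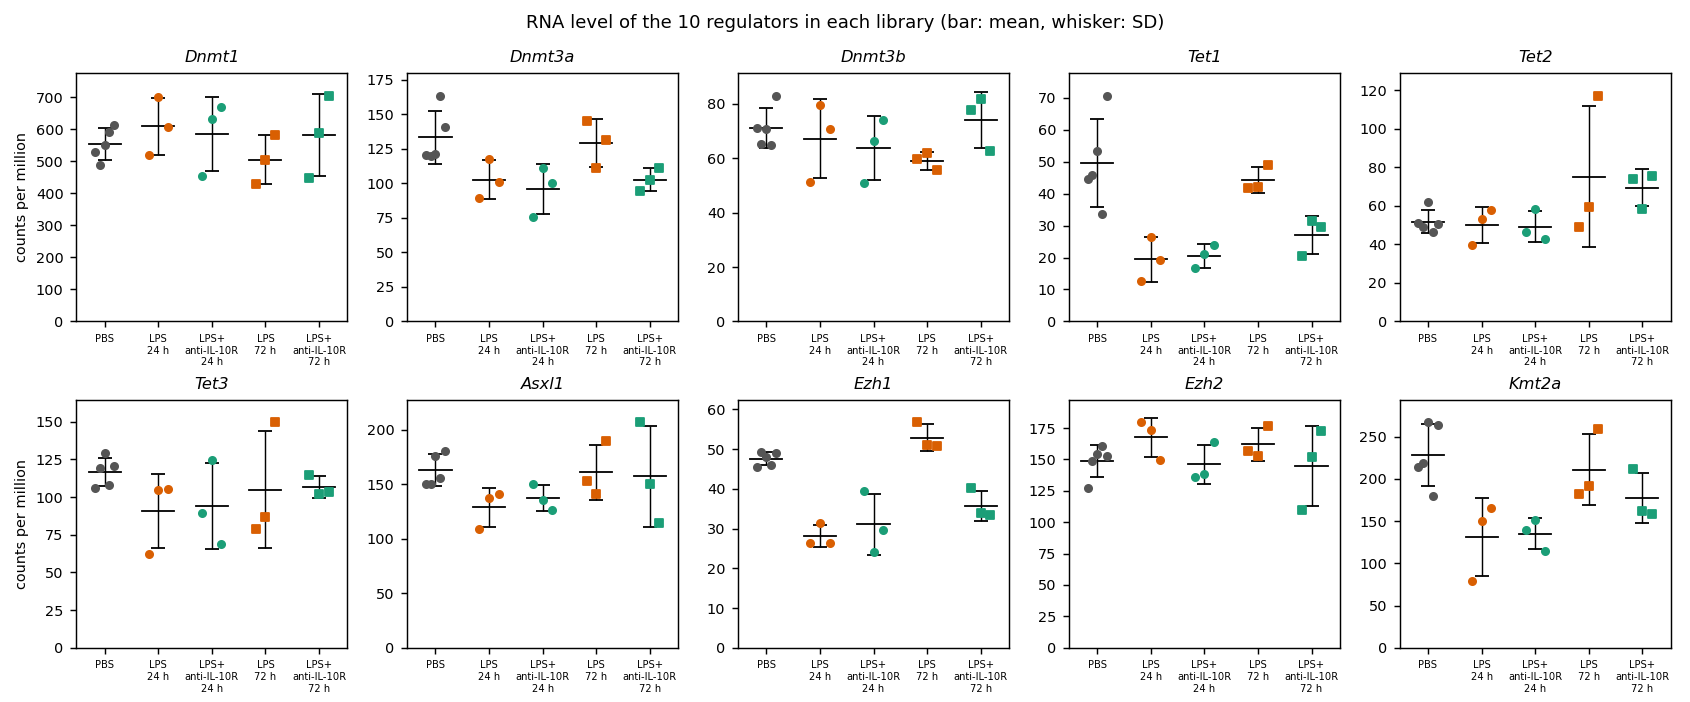
RNA level of the 10 genes in each library, in CPM from 0, by group. Circles are PBS and 24 h libraries, squares are 72 h libraries, the bar is the group mean and the whisker is the SD. Ezh1 sits between 45.6 and 49.2 CPM in PBS and between 26.4 and 31.3 CPM after LPS at 24 h.

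The libraries held 10516722 to 16006001 counts, and the lowest count of any of the 10 genes in any library was 135 (Tet1, LPS 24 h library 1). That library stood apart from the others. Its scaling factor by trimmed mean of M-values (TMM) was 0.799, against 0.947 to 1.12 elsewhere, and 12.2% of its counts came from genes with more than 8 kb of exon, against 15.2% to 20.3% elsewhere. The PBS libraries, the 24 h libraries numbered 1 and the remaining libraries have recorded names in 3 different styles. Whether the style marks a batch is not stated, and for PBS it cannot be told apart from the group. Stem cell markers (Mecom, Hlf, Procr, Kit, Cd34 and 7 others) were detected in every library, with a summed level of 799 to 1961 CPM.

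After LPS at 24 h, 3 of the 10 genes changed against PBS, and all 3 were lower: Tet1, Ezh1 and Kmt2a. Over all genes tested, 37.6% passed the same threshold (adjusted p below 0.05, edgeR's quasi-likelihood test with Benjamini-Hochberg adjustment over 14920 genes), and 18.5% passed it as lower. The median log2 change was -0.35 over the 10 genes and -0.03 over all genes tested. With the antibody at 24 h, 4 of the 10 were lower than PBS, namely the same 3 genes and Dnmt3a (1 of the 10 without antibody library 2), where 24.2% of all genes passed and 12.5% passed as lower. The median log2 change of the 10 was -0.28, and that of all genes tested was 0.00 (-0.00103). These 2 comparisons share the PBS libraries. Full separation from PBS, with all treated libraries above or all below every PBS library, was common at 24 h. It held for 42.8% of all genes tested after LPS alone and for 31% with the antibody, so by itself it does not mark a gene out. At 72 h it held for 12% after LPS alone and for 26.9% with the antibody. The antibody and LPS groups at 72 h were fully separated from each other for 33.2% of all genes tested. In these bulk samples a lower level can come from fewer cells of a type that expresses the gene or from less RNA per cell, which cannot be told apart.

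At 72 h after LPS alone, 0 of the 10 genes differed from PBS by edgeR's quasi-likelihood test, against 0.0201% of all genes. At an unadjusted p below 0.05 there was 1 gene, Tet2, and 0 of the 10 were called by DESeq2 or by voom. With the antibody at 72 h, 1 of the 10, Tet1, was lower than PBS, where 13.2% of all genes passed and 6.43% passed as lower. Directly between the 72 h groups, 1 gene, Ezh1, was lower with the antibody, where 15.1% of all genes passed and 6.48% passed as lower. Between 24 h and 72 h of LPS alone, 3 genes rose, again Tet1, Ezh1 and Kmt2a, where 31.1% of all genes passed and 14.7% passed as higher. These are the genes that were low at 24 h, and both comparisons use the same LPS 24 h libraries.

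Between the antibody group and LPS alone at 24 h, 0 of the 10 genes passed by edgeR, and 0% of all genes did. The unadjusted p was below 0.05 for 273 genes in all and for 0 of the 10, and DESeq2 and voom called 0 of the 10 as well. Between 72 h and 24 h within the antibody groups, 0 of the 10 and 0% of all genes passed by edgeR, with 635 genes at an unadjusted p below 0.05 and 0 of the 10 among them, and DESeq2 and voom again called 0 of the 10. The test of the antibody's effect at 72 h minus its effect at 24 h called 0 of the 10 by edgeR, against 6.35% of all genes. At an unadjusted p below 0.05 it held 1 of the 10, Ezh1, which was also the 1 gene called by DESeq2 and by voom.

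**Figure D2:**
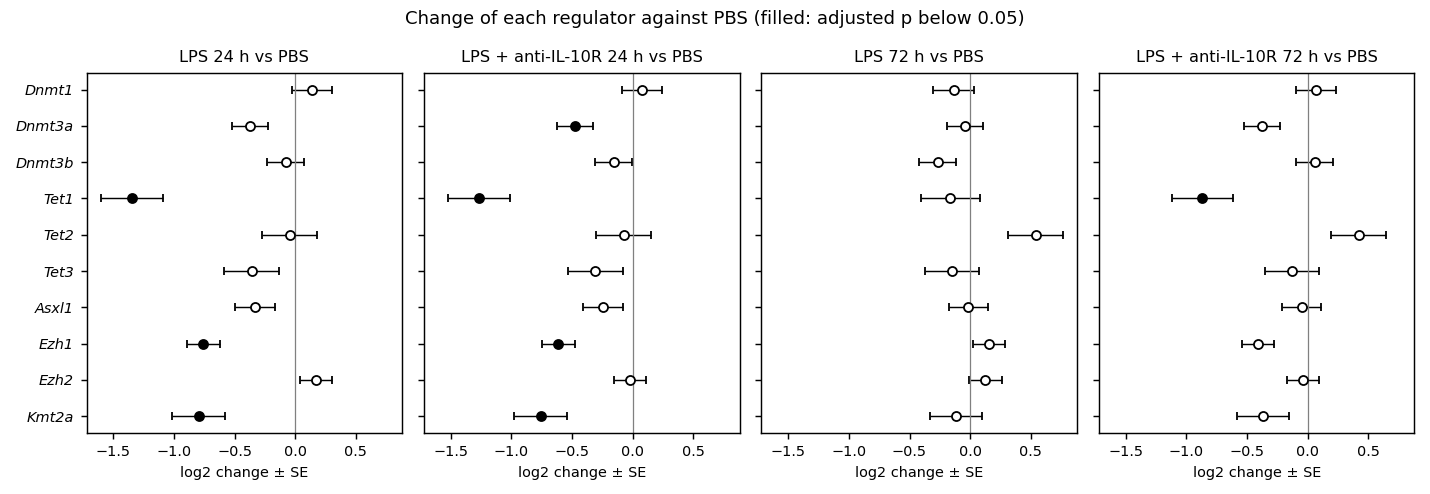
Log2 change of each of the 10 genes against PBS in the 4 treated groups, with the SE of the edgeR fit. Filled points have an adjusted p below 0.05. Tet1 is filled in 3 of the 4 panels and no gene is filled at 72 h after LPS alone.

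Among the DNA methyltransferases, Dnmt1 did not pass edgeR's test in any comparison. Its level was 488 to 614 CPM in PBS, 521 to 699.7 CPM after LPS at 24 h and 428 to 582 CPM at 72 h, and all groups overlapped. The largest fitted difference of Dnmt1 was 0.27 ± 0.186 (SE) lower on the log2 scale, at 72 h against 24 h of LPS alone (log2 change -0.27, adjusted p = 0.28), which passed by voom (-0.37, adjusted p = 0.0254). Dnmt3b, a methyltransferase of new sites, passed it in no comparison either. Its levels were 65.0 to 83.0 CPM in PBS and 55.5 to 62.0 CPM at 72 h after LPS, which did not overlap, with a log2 change of -0.27 ± 0.154 and an adjusted p of 0.525.

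Dnmt3a, the methyltransferase most often mutated in clonal hematopoiesis, had levels of 121, 120.1, 121, 163.5 and 141 CPM in PBS. After LPS with antibody at 24 h its levels were 76.0, 111 and 100.4 CPM, all below PBS. The log2 change was -0.47 ± 0.149 (SE), with an adjusted p of 0.0323. After LPS alone at 24 h the levels were 89.8, 118 and 101 CPM, also all below PBS, with a log2 change of -0.38 ± 0.149 and an adjusted p of 0.0576. This change passed by DESeq2 (adjusted p = 0.046), by voom (adjusted p = 0.0489), with upper-quartile factors (adjusted p = 0.0182) and without LPS library 2 (adjusted p = 0.0394). The antibody group at 24 h did not differ from LPS alone beyond the spread (log2 change -0.10 ± 0.164). At 72 h Dnmt3a was at 146, 111 and 131 CPM after LPS alone, within the range of PBS save for 1 library, and at 94.8, 102 and 111 CPM with the antibody, all below PBS (log2 change -0.38 ± 0.149, adjusted p = 0.0967). The call at 24 h was lost in the 5 fits without PBS library 4 or 5 or without any 1 of the 3 antibody libraries and in 6 of the 9 other alternative settings, with adjusted p from 0.0519 to 0.158.

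Tet1 showed the greatest change of the 10 genes. Its levels were 44.5, 45.9, 53.4, 33.6 and 70.6 CPM in PBS and 12.5, 26.5 and 19.3 CPM after LPS at 24 h. Every LPS library was below every PBS library. The log2 change was -1.35 ± 0.257 (SE), a change of -60.7%, with an adjusted p of 0.00141. Tet1 in the antibody group at 24 h was at 16.6, 21.01 and 24.1 CPM, again below PBS without overlap (log2 change -1.27 ± 0.256, adjusted p = 0.00577). At 72 h after LPS alone it was back at 41.7, 41.9 and 48.9 CPM, inside the PBS range. The rise from 24 h to 72 h was 1.18 ± 0.277 on the log2 scale, with an adjusted p of 0.00515.

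In the antibody group at 72 h, Tet1 was at 20.4, 31.5 and 29.6 CPM, below every PBS library and every LPS 72 h library. Against PBS the log2 change was -0.87 ± 0.251, with an adjusted p of 0.0355. Against LPS alone at 72 h it was -0.70 ± 0.274, with an adjusted p of 0.0908, which did not pass. It passed with the replicate number as a block (-0.73, adjusted p = 0.0298) and with the long-gene covariate (-0.90, adjusted p = 0.0134). The antibody's effect on Tet1 at 72 h minus that at 24 h was -0.78 ± 0.389 (adjusted p = 0.234). The difference from PBS at 72 h rested on few libraries. It did not pass without PBS library 2, 3 or 5 or without antibody library 1 or 3, with adjusted p from 0.0579 to 0.139.

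Tet2 and Tet3, the other oxidizing enzymes, did not pass edgeR's test in any comparison with all libraries. Among the alternative settings Tet2 passed with the long-gene share as a covariate (antibody at 72 h against PBS, 0.47, adjusted p = 0.0378) and without LPS 72 h library 1 (72 h against 24 h of LPS alone, 0.81, adjusted p = 0.0291). Tet2, the Tet gene most often lost in clonal hematopoiesis, was at 46.3 to 62.1 CPM in PBS, 39.8 to 57.7 CPM after LPS at 24 h and 43.0 to 58.2 CPM with the antibody at 24 h. At 72 h it was at 49.3, 59.2 and 117 CPM after LPS and at 74.1, 58.3 and 75.6 CPM with the antibody. The LPS 72 h library 3 was the high value, and the log2 change against PBS was 0.54 ± 0.223 (adjusted p = 0.386). Tet3 was at 106 to 129 CPM in PBS and 62.2, 104.7 and 105 CPM after LPS at 24 h. The LPS libraries were all below PBS, but LPS 24 h library 1 was far below the other two, and the log2 change of -0.36 ± 0.226 had an adjusted p of 0.223.

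Ezh1 had the narrowest spread in PBS, at 45.6, 49.2, 47.9, 46.1 and 48.9 CPM. After LPS at 24 h it fell to 26.4, 31.3 and 26.5 CPM, without overlap. The log2 change was -0.76 ± 0.137 (SE), a change of -40.9%, with an adjusted p of 0.00105. Ezh1 in the antibody group at 24 h was at 39.3, 24.1 and 29.8 CPM, all below PBS, with a log2 change of -0.61 ± 0.136 and an adjusted p of 0.00796. That call did not pass without antibody library 2 (log2 change -0.46, adjusted p = 0.0529).

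At 72 h the groups with and without the antibody lay on opposite sides of PBS for Ezh1. After LPS alone the levels were 56.8, 51.0 and 50.8 CPM, all above PBS, and with the antibody they were 40.1, 33.9 and 33.3 CPM, all below PBS. Against PBS, the log2 changes were 0.15 ± 0.132 (adjusted p = 0.667) and -0.41 ± 0.135 (adjusted p = 0.0541), so neither passed by edgeR. The latter passed in 5 of the 8 other alternative settings, among them DESeq2 (adjusted p = 0.023), voom (adjusted p = 0.00806) and the fit of only the groups compared (adjusted p = 0.0243), and in none of the 8 fits without 1 library (adjusted p from 0.0687 to 0.165). The direct comparison of the 72 h groups passed, with a log2 change of -0.56 ± 0.149, a level 32.3% lower with the antibody (percent change -32.3) and an adjusted p of 0.0206. Between 24 h and 72 h Ezh1 rose by 0.91 ± 0.150 on the log2 scale after LPS alone (adjusted p = 0.000567), and the change in the antibody groups was 0.20 ± 0.149 (adjusted p = 0.918). The difference between these time courses was -0.71 ± 0.211, with an adjusted p of 0.0559. The direct call at 72 h did not pass without LPS 72 h library 1, without antibody library 2 or 3, or with only the 6 libraries compared, with adjusted p from 0.0613 to 0.0914.

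Ezh2, the PRC2 enzyme of dividing cells, did not pass edgeR's test in any comparison. Its levels were 127 to 161 CPM in PBS, 179.8, 173 and 149.6 CPM after LPS at 24 h, and 136, 138 and 164 CPM with the antibody at 24 h. The log2 changes were 0.17 ± 0.134 (adjusted p = 0.328) and -0.02 ± 0.135 (adjusted p = 0.917). Within a library, Ezh1 relative to Ezh2 had a log2 ratio of CPM of -1.48, -1.60, -1.69, -1.80 and -1.64 in PBS and of -2.77, -2.47 and -2.50 after LPS at 24 h. The LPS libraries were all lower. At 72 h after LPS the ratio was -1.47, -1.58 and -1.80, in the range of PBS but for 1 library. In the antibody group at 24 h it was -1.79, -2.52 and -2.46, with library 1 inside the PBS range. In the antibody group at 72 h it was -1.45, -2.16 and -2.37, so 1 of the 3 libraries was at the level of LPS alone. The same ratio for Tet1 relative to Tet2 averaged -0.10 ± 0.350 (SD, n = 5) in PBS, -1.42 ± 0.361 (n = 3) after LPS at 24 h, -0.67 ± 0.529 at 72 h and -1.37 ± 0.488 with the antibody at 72 h. These ratios are descriptions and were not tested.

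**Figure D3:**
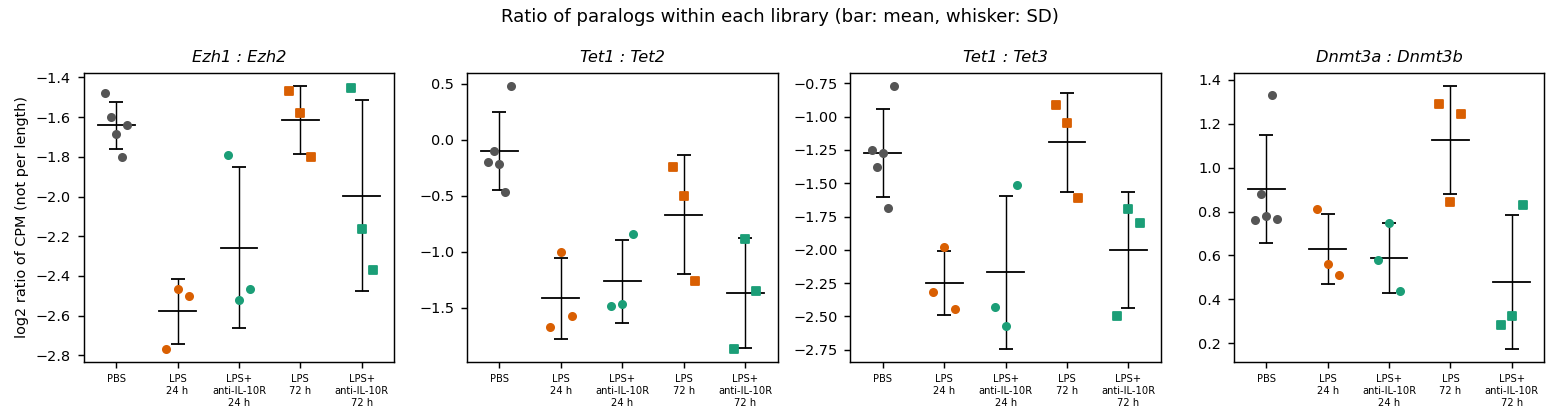
Log2 ratio of the CPM of 4 pairs of paralogs within each library, not corrected for length, with the group mean and SD. The ratio of Ezh1 to Ezh2 lies between -1.80 and -1.48 in PBS and between -2.77 and -2.47 after LPS at 24 h, with no overlap.

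Asxl1, the PR-DUB partner, did not pass edgeR's test in any comparison with TMM scaling. Its levels were 150.7 to 181 CPM in PBS and 109, 137 and 141 CPM after LPS at 24 h, all below PBS, with a log2 change of -0.34 ± 0.165 and an adjusted p of 0.12 (-0.46 and 0.0455 with upper-quartile factors). At 72 h the groups overlapped PBS, at 141 to 189.5 CPM after LPS alone and at 115 to 207 CPM with the antibody. The 2 antibody libraries at the ends of that range differed more from each other than any group mean did from PBS.

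Kmt2a was at 214, 218, 267, 179.8 and 263 CPM in PBS. After LPS at 24 h it was at 78.6, 150.3 and 165 CPM, all below PBS, with LPS 24 h library 1 far below the other two. The log2 change was -0.80 ± 0.219 (SE), with an adjusted p of 0.0108. Without that library it was -0.52, with an adjusted p of 0.0641. Kmt2a in the antibody group at 24 h was at 140.0, 151 and 114.5 CPM, below PBS without overlap, with a log2 change of -0.76 ± 0.219 and an adjusted p of 0.0234. This call did not pass without PBS library 3 or 5, without antibody library 2 or 3, or with the replicate number as a block, with adjusted p from 0.0565 to 0.0891.

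At 72 h after LPS alone Kmt2a was at 182, 191 and 259 CPM, inside the PBS range, and at 212, 162 and 158 CPM with the antibody, where 2 of the 3 libraries were below PBS. The rise from 24 h to 72 h after LPS alone was 0.68 ± 0.240 on the log2 scale (adjusted p = 0.0411). It did not pass without LPS 24 h library 1 (log2 change 0.44, adjusted p = 0.136), without any 1 of the 3 LPS 72 h libraries (adjusted p from 0.0516 to 0.19) or in 5 of the 9 other alternative settings.

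Tet1, Kmt2a, Dnmt3a, Tet2 and Tet3 have more than 8 kb of exon and the other 5 genes have 4 to 8 kb. Across all genes, the change with treatment differed by exon length. After LPS at 24 h the median log2 change was 0.07 for genes with under 2 kb of exon and -0.21 for the 2263 genes over 8 kb, and with the antibody at 24 h it was 0.09 and -0.16. At 72 h against PBS it was 0.06 and -0.09 after LPS alone, and -0.02 and -0.00205 with the antibody. For the antibody against LPS alone at 72 h it was -0.10 and 0.09. Tet1 and Kmt2a fell by more than the median of their length class at 24 h, and Ezh1 fell in a class whose median was -0.05. With the share of counts in long genes as a covariate, an alternative chosen after seeing the data, the change after LPS at 24 h was -1.01 for Tet1 (adjusted p = 0.00839), -0.75 for Ezh1 (adjusted p = 0.00509) and -0.40 for Kmt2a (adjusted p = 0.0225). Kmt2a thus kept its call at a change reduced by more than 1.5 times.

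**Figure D4:**
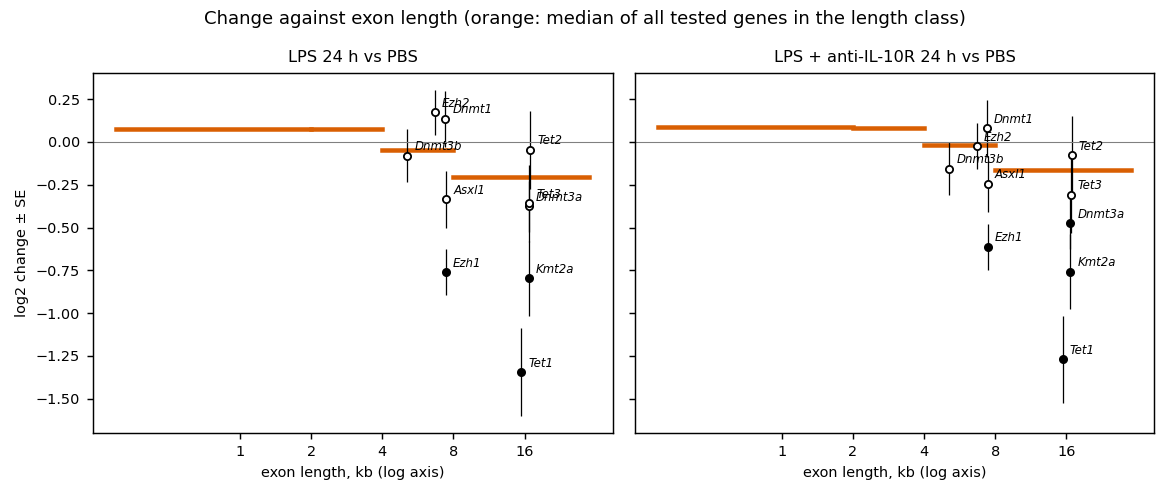
Log2 change against PBS at 24 h (± SE) plotted on the exon length of each of the 10 genes, with length in kb on a log axis. Orange lines are the median change of all tested genes in 4 length classes, from 0.07 to -0.21 after LPS alone, and filled points have an adjusted p below 0.05. Tet1 lies farthest below the median of its class.

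Among the partners of DNA methylation, Uhrf1 and Hells rose after LPS at 24 h. Uhrf1, which recruits Dnmt1, rose from 271 to 345 CPM in PBS to 412, 441 and 415 CPM (log2 change 0.44 ± 0.158, adjusted p = 0.0386). Hells, a chromatin remodeller needed for DNA methylation, rose by 0.88 ± 0.246 (adjusted p = 0.0117). The Uhrf1 call was lost with the replicate number as a block (adjusted p = 0.0573) and in 6 of the 8 fits without 1 library (PBS library 2, 3 or 4 or any LPS library, adjusted p from 0.0557 to 0.0952), and the Hells call was lost without LPS library 2 (adjusted p = 0.0502). Of the 13 methylation partners, 4 were higher and 2 were lower (19.1% and 18.5% of all genes tested), with a median log2 change of 0.28. Among them Mbd3 was higher by 0.69 ± 0.176 (adjusted p = 0.00716, and 0.0622 without LPS library 1). For the antibody group at 24 h, 2 of the 13 were higher and 1 was lower (11.7% and 12.5% of all genes). Uhrf1 did not pass there (log2 change 0.32 ± 0.158, adjusted p = 0.15), and Hells did (0.71 ± 0.246, adjusted p = 0.0463), although antibody library 1 at 90.8 CPM lay within the PBS range of 82.4 to 109 CPM. That call was lost without PBS library 2, 3, 4 or 5 or antibody library 2 or 3 (adjusted p from 0.0643 to 0.294).

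Tdg, the glycosylase that acts after the Tet enzymes, was at 67.5, 54.5, 58.1, 68.8 and 61.5 CPM in PBS and at 94.3, 99.0 and 84.4 CPM after LPS at 24 h, without overlap (log2 change 0.58 ± 0.110, adjusted p = 0.00138). At 72 h after LPS alone it was at 47.6, 52.7 and 52.7 CPM, all below PBS (log2 change -0.28 ± 0.113, adjusted p = 0.376). In the antibody group at 72 h it was at 87.5, 82.5 and 94.4 CPM, all above PBS (0.51 ± 0.110, adjusted p = 0.0125) and above LPS alone (0.79 ± 0.125, adjusted p = 0.00184). The antibody's effect on Tdg differed between 72 h and 24 h by 0.88 ± 0.176 (adjusted p = 0.0132). The difference from PBS at 72 h was lost with the replicate number as a block (adjusted p = 0.0539) and without antibody library 3 (adjusted p = 0.0589), whereas the difference from LPS alone and that between the times passed in these fits. Of the 10 demethylation partners tested, 2 rose and 3 fell after LPS at 24 h (19.1% and 18.5% of all genes). With the antibody at 72 h against LPS alone, 2 were higher and 2 lower (8.64% and 6.48% of all genes), with at most 1 lower without any 1 library. Cxxc5, a CpG-binding protein, was lower after LPS at 24 h (-1.40 ± 0.235, adjusted p = 0.000726) and with the antibody at 72 h against LPS alone (-0.95 ± 0.251, adjusted p = 0.0199), the latter not without LPS 72 h library 1 or 2 or antibody library 1 or 3 (adjusted p from 0.0599 to 0.112).

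Within PRC2, Eed, the subunit that binds the finished mark, rose while Ezh1 fell. Eed was at 58.1 to 64.2 CPM in PBS and at 103, 87.8 and 85.9 CPM after LPS at 24 h (log2 change 0.58 ± 0.098, adjusted p = 0.000743). In the antibody group at 24 h it was at 65.7, 81.1 and 81.6 CPM, also above PBS (0.31 ± 0.099, adjusted p = 0.0355), a call lost without PBS library 2 or 3 or antibody library 2 or 3 (adjusted p from 0.0549 to 0.143). After LPS alone it was back at 58.2 to 60.4 CPM at 72 h, a fall of 0.64 against 24 h (log2 change -0.64 ± 0.112, adjusted p = 0.000782), and the antibody's effect differed between the times by 0.60 ± 0.157 (adjusted p = 0.0366). That difference was lost in 6 of the 12 fits without 1 library (LPS 24 h library 1, LPS 72 h library 1 or 2, antibody 24 h library 1 or 3 or antibody 72 h library 3, adjusted p from 0.0678 to 0.0945). Suz12, the core scaffold, was at 125 to 134.5 CPM in PBS and at 172, 187 and 219 CPM with the antibody at 72 h (0.56 ± 0.161, adjusted p = 0.0346). It was above LPS alone at 72 h as well (0.56 ± 0.183, adjusted p = 0.0489). The first call was lost with the replicate number as a block (adjusted p = 0.0679) and without PBS library 2, 3, 4 or 5 or antibody library 3 (adjusted p from 0.0519 to 0.135), and the second without LPS library 1 or 2 or antibody library 2 or 3 (adjusted p from 0.0567 to 0.195). At 24 h after LPS alone Suz12 was above PBS in all 3 libraries, with a log2 change of 0.40 ± 0.162 that did not pass (adjusted p = 0.0632).

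Of the 11 PRC2 partners tested, 3 rose and 1 fell after LPS at 24 h (19.1% and 18.5% of all genes), with a median log2 change of 0.28. The one that fell was Phf1, an accessory subunit that binds a methylated lysine of histone H3 (-1.24 ± 0.261, adjusted p = 0.00245). Phf1 was also lower with the antibody at 72 h against LPS alone (-1.23 ± 0.283, adjusted p = 0.0108), though not without LPS 72 h library 1 or antibody library 1 (adjusted p of 0.0651 and 0.0527). Of the 19 subunits of the companion complex PRC1, 2 rose and 5 fell after LPS at 24 h, beside the same shares of all genes. The greatest falls were those of the chromodomain genes Cbx7 (-1.26 ± 0.293, adjusted p = 0.00422) and Cbx2 (-1.14 ± 0.322, adjusted p = 0.0121, and 0.075 without LPS library 1). At 72 h after LPS alone, 0 of the PRC2, PRC1, methylation and demethylation partners differed from PBS by edgeR, a comparison in which 3 of 14920 genes passed and 1702 had an unadjusted p below 0.05 (178 genes passed by DESeq2 and 2170 by voom).

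**Figure D5:**
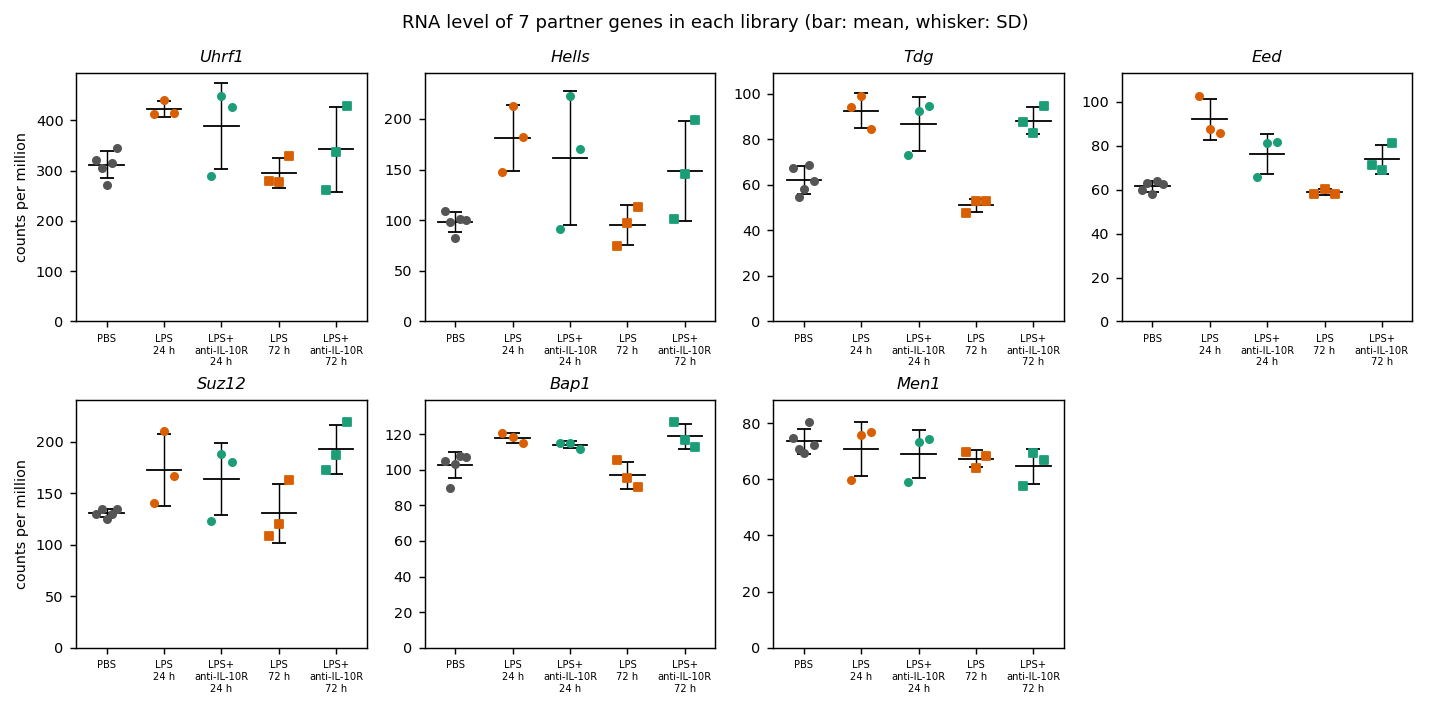
RNA level of 7 partner genes in each library, in CPM from 0, with group mean and SD. Circles are PBS and 24 h, squares are 72 h. Tdg lies between 54.5 and 68.8 CPM in PBS, between 47.6 and 52.7 CPM at 72 h after LPS and between 82.5 and 94.4 CPM with the antibody at 72 h.

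Bap1, the catalytic subunit of PR-DUB, did not pass against PBS in any group. It was at 89.8 to 108 CPM in PBS and at 115.0 to 121 CPM after LPS at 24 h (log2 change 0.20 ± 0.087, adjusted p = 0.0815), and it was lower at 72 h than at 24 h after LPS alone (-0.28 ± 0.098, adjusted p = 0.038), a call lost without any 1 of these libraries but LPS 72 h library 1 (adjusted p from 0.0504 to 0.0995). Of the 8 PR-DUB partners tested, 2 rose and 2 fell after LPS at 24 h (19.1% and 18.5% of all genes). The falls were Mbd5 (-0.86 ± 0.225, adjusted p = 0.00796) and Mbd6 (-0.47 ± 0.141, adjusted p = 0.0157), the latter not without LPS library 1 or 2 (adjusted p of 0.0885 and 0.0521). Men1, the cofactor of Kmt2a, passed no test, with levels of 69.2 to 80.4 CPM in PBS and 59.6 to 76.8 CPM after LPS at 24 h (log2 change -0.06 ± 0.112, adjusted p = 0.724). Of the 17 other MLL and COMPASS genes, 4 rose and 3 fell after LPS at 24 h, beside the same shares of all genes. Dpy30, a shared small subunit, rose by 1.12 ± 0.246 (adjusted p = 0.00308), while the related genes Kmt2e (-0.74 ± 0.218, adjusted p = 0.0152) and Kmt2c (-0.74 ± 0.268, adjusted p = 0.0402) fell. Without LPS library 1 neither Kmt2e (adjusted p = 0.0957) nor Kmt2c (adjusted p = 0.225) passed, and Kmt2c also did not with the replicate number as a block (adjusted p = 0.0715) or without PBS library 1, 2, 3 or 5 (adjusted p from 0.0628 to 0.0826).

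Known target genes of Kmt2a were lower together with it. Of the 12 tested, 9 were lower and 0 higher after LPS at 24 h (18.5% and 19.1% of all genes). The median log2 change was -1.09 against -0.03 over all genes, and 6 were lower without LPS library 1. Mecom, a stem cell transcription factor, changed by -2.63 ± 0.472 (adjusted p = 0.00104), Hoxa6 by -2.11 ± 0.358 (adjusted p = 0.000753) and Eya1 by -1.63 ± 0.310 (adjusted p = 0.00137). The summed level of the list was 389 to 667 CPM in PBS, 208 to 351 CPM after LPS at 24 h and 459 to 529 CPM at 72 h. Between 24 h and 72 h of LPS alone, 9 of the 12 rose and 0 fell (14.7% and 16.4% of all genes). In the antibody group at 24 h, 6 of the 12 were lower than PBS, beside 12.5% of all genes (2 of the 13 then tested without antibody library 2). With the antibody at 72 h, 2 were lower than PBS, beside 6.43% of all genes (0 with the replicate number as a block or without antibody library 1 or 3). Against LPS alone at 72 h, 2 were lower, beside 6.48% of all genes, namely Hoxa5 (-1.25 ± 0.381, adjusted p = 0.038) and Hoxa7 (-0.68 ± 0.205, adjusted p = 0.037). These last calls were lost in 4 of the 6 fits without 1 library for Hoxa5 (LPS library 1 or 2, antibody library 1 or 3, adjusted p from 0.0782 to 0.146) and in 5 for Hoxa7 (all but LPS library 3, adjusted p from 0.0789 to 0.122). Mecom, Meis1 and Hoxa9 are also stem cell markers, so this list and the marker list below are not independent.

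The other genes recurrently mutated in clonal hematopoiesis showed no single direction. Of 28 tested, 5 rose and 3 fell after LPS at 24 h (19.1% and 18.5% of all genes), with a median log2 change of -0.07. The transcription factor Cux1 was lower (-1.04 ± 0.154, adjusted p = 0.000487), and Calr, an endoplasmic reticulum chaperone, was higher (1.16 ± 0.249, adjusted p = 0.0026). Against PBS, 4 rose and 2 fell with the antibody at 24 h (11.7% and 12.5% of all genes). At 72 h with the antibody 1 of the 28, Cux1, was lower than PBS (-0.66 ± 0.152, adjusted p = 0.0152), where 6.43% of all genes were lower. That call did not pass with the replicate number as a block (adjusted p = 0.0666) or without antibody library 1 or 3 (adjusted p of 0.0657 and 0.0742). Germline genes known to be kept silent by DNA methylation summed to 13.6 to 26.0 CPM in PBS and to 9.14 to 29.8 CPM at 72 h after LPS alone. The sum was 1.47 to 3.64 CPM after LPS at 24 h. With the antibody it was 0.937 to 5.53 CPM at 24 h and 2.86 to 10.9 CPM at 72 h. In each library 9 to 12 of the 14 genes were at 0, so the sum does not describe the class. Of 14, 1 passed the filter on low counts, Ddx4, and it was lower after LPS at 24 h (-3.07 ± 0.690, adjusted p = 0.00351) and with the antibody at 24 h (-2.35 ± 0.655, adjusted p = 0.0201, and 0.0784 without antibody library 2). Ddx4 was called higher at 72 h than at 24 h of LPS alone (log2 change 3.14).

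Several of these counts rested on LPS 24 h library 1, without which 3361 of all genes were called against PBS (5616 with it). Without it, 1 of the 13 methylation partners was higher and 1 was lower than PBS after LPS alone, and among the 10 demethylation partners 2 were higher and 1 was lower. PRC1 then had 1 subunit higher and 2 lower, PR-DUB 1 and 1, the MLL and COMPASS genes 4 and 0, and the other clonal-hematopoiesis genes 3 and 2, whereas PRC2 had 3 and 1, as with all libraries. With the replicate number as a block, 2 methylation partners, 0 PRC1 subunits, 1 PR-DUB partner and 3 of the other clonal-hematopoiesis genes were higher. Without antibody library 2, the antibody group at 24 h had 0 methylation partners called by edgeR, and of the other clonal-hematopoiesis genes 0 were higher and 1 was lower.

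Other gene groups moved at the same time as Tet1, Ezh1 and Kmt2a, and their part in the results was not tested. After LPS at 24 h, 19.1% of all genes rose and 18.5% fell, and the counts of the lists here stand beside these shares. Of 25 S-phase and mitotic genes, 16 rose and 0 fell after LPS at 24 h, with a median log2 change of 0.51. Their summed level was 5505 to 6589 CPM in PBS and 7020 to 8446 CPM after LPS. Without LPS library 1 the number that rose was 9. Rrm2, the ribonucleotide reductase subunit, rose by 1.06 ± 0.245 (adjusted p = 0.00408). Of 12 stem cell markers, 8 were lower, with a summed level of 1353 to 1961 CPM in PBS and 799 to 1015 CPM after LPS at 24 h. At 72 h the summed level was 1301 to 1667 CPM after LPS alone and 901 to 1223 CPM with the antibody. Of 12 monocyte and macrophage markers, 11 were lower at 24 h after LPS, from a summed level of 429 to 3119 CPM in PBS to 154 to 178 CPM, with none at 0. At 72 h that level was 244 to 413 CPM after LPS alone and 181 to 489 CPM with the antibody. This sum is weighted to the abundant genes of the list. The median log2 change of these markers against PBS was -3.99 at 24 h and -5.07 at 72 h of LPS alone. Between these times it was -0.34, with single genes from -4.59 to 1.60. B cell markers summed to 392 to 1345 CPM in PBS and 73.4 to 97.6 CPM after LPS at 24 h, and 3 of 9 were lower (7 with the replicate number as a block, 1 without LPS library 1 or 3). T and NK cell markers (3 of 8 lower, 6 with the block) and erythroid markers (1 of 10 lower) summed to at most 271 CPM in PBS. Erythroid markers reached 458 CPM in antibody 24 h library 1. With the antibody at 72 h against PBS, 5 of 8 T and NK cell markers (median log2 change -2.30), 3 of 12 monocyte and macrophage markers (-2.63), 2 of 12 stem cell markers (-0.73) and 1 of 10 erythroid markers (-1.86) were lower, beside 6.43% of all genes. The fit blocked on replicate number gave 4, 1, 0 and 1. At 72 h of LPS alone, 0 of these markers were called against PBS by edgeR, where 3 of 14920 genes were. The medians there were -0.54 for T and NK cells, -5.07 for monocytes and macrophages, -0.38 for stem cells and -3.31 for erythroid markers. The unadjusted p of edgeR was below 0.05 for 1 of 8, 11 of 12, 1 of 12 and 6 of 10. With the antibody it was for 6, 10, 7 and 6. Between the antibody and LPS alone at 72 h, 1 marker each of T and NK cells, of monocytes and macrophages and of stem cells was lower, beside 6.48% of all genes. The median log2 differences there were -1.38 for T and NK cells, 2.27 for monocytes and macrophages (6 of 12 at an unadjusted p below 0.05), -0.48 for stem cells and 1.75 for erythroid markers (0 of 10 called by edgeR and 0 at an unadjusted p below 0.05). Neutrophil markers had 0 of 10 called at 24 h by edgeR, at 2533 to 15103 CPM in PBS and 8859 to 17641 CPM after LPS. That list joins primary granule genes (Elane, Mpo, Prtn3 and Ctsg) to late ones such as Ltf, Camp and Ngp, so its sum is not a measure of mature neutrophils.

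Across the 17 libraries the genes whose log2 CPM was most like that of Ezh1 were 2810408A11Rik (Pearson r = 0.98), Mxd4 (r = 0.97), a Myc antagonist, and Dyrk1b (r = 0.97), a kinase of quiescent cells. With group means removed the coefficients were 0.87, 0.81 and 0.82. For Tet1 they were Zfp608 (r = 0.98), Arhgap32 (r = 0.97) and Scaper (r = 0.97), and with group means removed 0.90, 0.91 and 0.86. For Kmt2a they were Vasn (r = 0.98), Ash1l (r = 0.97), another trithorax methyltransferase, and Fam13b (r = 0.96), with 0.96, 0.95 and 0.90 after group means were removed. Ezh2 was most like Fbxo5 (r = 0.88), an inhibitor of the anaphase-promoting complex, and Dnmt1 was most like Trim37 (r = 0.93), Cbx5 (r = 0.91) and Pola1 (r = 0.91), the catalytic subunit of DNA polymerase alpha. The remaining nearest genes were Snx12 and Haus3 for Ezh2, Cnnm3, Ctif and Bcr for Dnmt3a, Rai14, Eif2ak4 and D630045J12Rik for Dnmt3b, Gm42549, Snrnp48 and Itpr1 for Tet2, Kmt2d, Rreb1 and Smg1 for Tet3, and Foxn3, Gm45718 and Mink1 for Asxl1. Tet3 and its nearest gene, the MLL relative Kmt2d, had r = 0.97, and both are long transcripts. Among the 10 genes themselves, Tet1 and Kmt2a had r = 0.83 (0.51 with group means removed), whereas Tet1 and Ezh1 had r = 0.78, which became -0.09 once group means were removed. Points share the library, its depth and its treatment group, and these coefficients are descriptions without a test.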

How the data were processed

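Polyadenylated RNA was measured as counts per gene in 17 libraries of 5 groups. The authors deposited 1 table of whole-number gene counts, not normalized. The submitters' processing notes name HISAT2 2.2.0, Subread, featureCounts 2.1.1, R 4.3.2, DESeq2 and the build GRCm38, without their order, and strandedness is not given in the sources used here. Whether reads of a gene and of an overlapping gene on the other strand were counted apart is therefore not known. Such overlaps covered at most 2.65% of the exon bases of any of the 10 genes (Asxl1), and Tet1 and Ezh1 had none.

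The table holds 35321 genes, 13321 of them at 0 in every library. Genes were kept by filterByExpr of edgeR 4.0.16 in R 4.3.3 (minimum count 10, minimum total 15), which left 14920 genes with 99.9% of the counts, at 10516722 to 16006001 counts per library. Libraries were scaled by TMM, and 1 quasi-likelihood model of the 5 groups over all 17 libraries gave 9 comparisons, with Benjamini-Hochberg adjustment over all tested genes in each, a threshold of 0.05 and a prior count of 2 for log2 values. Exon lengths came from GENCODE M21 (a length for 98.0% of tested genes). The members and lists were chosen with earlier results of these data known. All 10 members and 7 direct partners are named throughout, at most the 3 called genes of greatest change per other list and comparison, and the 3 genes of highest correlation per member. Some genes that this rule would name are not reported here.

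Alternatives were DESeq2 1.42.0, voom with quality weights (limma 3.58.1), other size factors, no filter, only the groups compared, the replicate number as a block and each library left out. Leaving out both 24 h libraries numbered 1 and a long-gene covariate were added after seeing the data. Libraries of a group differed by a chi-square per gene of 11.8 to 90.2, and the lowest value over all 136 pairs of libraries was 11.1, so no pair agreed within counting noise. The fits were tested on simulated data. Deviations of same-numbered libraries correlated above 0.1 in every pair for LPS at 24 h against PBS (0.163 to 0.202). They also did for the antibody at 72 h against PBS (0.116 to 0.206). No label says that a number marks a shared batch. The reported p-values come from fits without a block and take no account of pairing, and the fit blocked on replicate number is given as an alternative. In the other comparisons between groups the lowest correlation was -0.365 to 0.0108. Single pairs reached 0.723 for the antibody at 72 h against 24 h (mean 0.466). They reached 0.319 for the antibody against LPS alone at 72 h (mean 0.199). The labels give these libraries only a number in common.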

Additional observations from a re-analysis of the deposited data

Results flagged for a closer look

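Bap1 in PBS had 1 library far from the rest: library 2 was at 89.8 CPM and the other 4 at 103 to 108 CPM, a gap of 0.732 of the range. Such a gap arises by chance in about 1 in 20 groups, and 17 groups were examined (the 10 members and the 7 direct partners in PBS).

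The antibody's effect at 72 h minus that at 24 h passed the test by edgeR for these genes of the partner lists. The log2 difference was 0.88 for Tdg (adjusted p = 0.0132), 0.60 for Eed (adjusted p = 0.0366) and 0.75 for the deubiquitinase Usp7 (adjusted p = 0.0103). It was -1.63 for Phf1 (adjusted p = 0.028), 0.80 for Foxk2, a partner of Bap1 (adjusted p = 0.0438), and 0.62 for Wdr5, a COMPASS subunit (adjusted p = 0.0419). In the 12 fits without 1 library, Foxk2 and Wdr5 each lost the call in 9 (adjusted p from 0.0582 to 0.125 and from 0.0564 to 0.105), Eed in 6 and Phf1 in 4 (0.0586 to 0.089).

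At 72 h the 3 libraries with LPS alone and the 3 with the antibody lay on opposite sides of all PBS libraries for 2 of the 17 members and direct partners, and for 1.59% of all tested genes. The log2 difference of the antibody group from LPS alone was -0.56 for Ezh1 (adjusted p = 0.0206) and 0.79 for Tdg (adjusted p = 0.00184).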

How the results depend on the processing

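Of the 194 alternative values of the 12 called changes of the 10 genes, 157 were called in the same direction, and 25 of the 1266 alternative values of the other changes were called. No called change took the other sign, and 129 of the values of uncalled changes did, none of them called. The cause of these differences was not tested. Upper-quartile factors gave 5 genes for LPS at 24 h against PBS (Dnmt3a and Asxl1 added, with the median of all genes moved from -0.03 to -0.16), 2 for the antibody at 72 h against PBS (Ezh1 added) and 1 for the antibody by time. DESeq2 gave 2 and 1 for the latter 2 comparisons. Voom gave 3 and 1 for them and 2 for the antibody against LPS alone at 72 h (Dnmt3b added, 0.36). Fits of only the groups compared gave 2 for the antibody at 72 h against PBS and 0 for the antibody against LPS alone at 72 h. The added long-gene covariate gave 4 and 3 for these 2 comparisons and 1 for the antibody by time. The gene called for the antibody by time in 4 of these settings was Ezh1 (adjusted p from 0.0173 to 0.0422).

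The fit blocked on replicate number called 2 of the 10 for the antibody at 24 h against PBS and 2 for the antibody against LPS alone at 72 h (Tet1 added). In the comparisons with PBS where same-numbered libraries correlated above 0.1 in every pair, the block changed no call of the 10 genes. All genes called there with the block numbered 4163 for LPS at 24 h (5616 without it) and 374 for the antibody at 72 h (1975 without it).

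Without 1 library, the number of the 10 genes called was 2 to 4 for LPS at 24 h against PBS and 1 to 4 with the antibody. It was 0 to 1 for the antibody at 72 h against PBS, for the antibody against LPS alone at 72 h and for the antibody by time, and 2 to 3 between the times of LPS alone. Over all genes, the calls ranged from 3361 to 5443 for LPS at 24 h, from 877 to 3420 with the antibody at 24 h, from 583 to 2066 with the antibody at 72 h (all against PBS), from 769 to 2279 between the 72 h groups and from 231 to 1544 for the antibody by time. Under the other settings, LPS at 72 h against PBS called 0 to 2170 genes (3 in the reported fit). Depth gave each of the 10 genes at least 135 counts in every library.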
